A study of Mus musculus with 4 samples.

Results

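Chaperones are proteins that help other proteins to fold, keep them from aggregating and pass damaged ones on for disposal. In the cytosol the HSP70 proteins bind unfolded stretches together with J-domain partners and nucleotide exchange factors, the HSP90 proteins and their cochaperones mature kinases and steroid receptors, and the ring-shaped chaperonin TRiC folds actin and tubulin. Mitochondria hold their own HSP70, HSP60 and HSP90 members, and the transcription factor HSF1 drives many of the cytosolic genes from heat shock elements when unfolded proteins build up. In T cells the same machinery is known for serving cell growth after activation.

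The genes described here are 37 cytosolic and mitochondrial chaperone genes, listed by symbol and taken wherever a table holds a row with that symbol. The list was made with earlier results of these data known. Of the 37 genes, 36 were listed in the table of the DSS experiment, which holds 10663 usable rows, and 37 in the table of the vector experiment, which holds 23259. Hspb1 was the gene not listed in the DSS table. The 37 comprise the heat shock factor Hsf1, 6 cytosolic HSP70 and HSP110 genes, 5 cytosolic J-domain genes, 3 BAG and Hip cochaperones of HSP70, 2 cytosolic HSP90 genes, 7 HSP90 cochaperones, 1 small heat shock protein, 5 mitochondrial chaperones and 7 TRiC subunits.

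The series holds 4 RNA sequencing libraries of mouse T cells, 1 per group. The first experiment set regulatory T cells (Treg) from the spleen of Balb/c Foxp3-hCD2 reporter mice that drank water with 3% DSS (dextran sulfate sodium, which injures the colon lining) for 7 days against those of non-treated mice of the same strain and genotype. Treg were purified by the human CD2 reporter, so cells of both groups carry that allele. The second took naive CD4 T cells from wild-type mice of strain C57BL6 and set cells transduced with a Sox12 vector against cells given a mock vector, and the series title names Treg induction by Sox12 as the question. The labels do not give age, sex, culture conditions, the time after transduction or whether animals were pooled.

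Values are FPKM, fragments scaled to transcript length and to the number of mapped fragments, as made by the authors, so levels of different genes can be compared per length. Changes are given as log2(FPKM + 1) in DSS Treg minus that in untreated Treg, or with the Sox12 vector minus that with the mock vector. They are given for genes whose FPKM averaged 1 or more over both libraries, and a ratio is of the FPKM themselves. With 1 library per group there is no replicate error and no test, so both values are given, and a gene is counted as higher or lower past a fixed size of 1.2, 1.5 or 2 times on the log2(FPKM + 1) scale. In bulk RNA, fewer cells of a type and less RNA per cell cannot be told apart.

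The labels were checked against defining genes. Foxp3 had 84.9 FPKM in DSS Treg and 88.2 FPKM in untreated Treg, and Cd3e, a chain of the T cell receptor complex, had 473 FPKM in DSS Treg and 468 FPKM in untreated Treg. In the transduced cells Sox12 had 829 FPKM with the Sox12 vector and 1.56 FPKM with the mock vector. Of 8 Treg identity genes there 3 were above and 5 below 0, with sums of 1291 FPKM with the Sox12 vector and 1733 FPKM with the mock vector. Foxp3 was among those above 0, with 127 FPKM with the Sox12 vector and 20.9 FPKM with the mock vector. Among those below 0 was Tnfrsf4, with 179.6 FPKM with the Sox12 vector and 423 FPKM with the mock vector. The low values of the vector table showed that the Sox12 library held about 1.05 times as many fragments as the mock library. There a level of 1 FPKM for a transcript of 2 kb rested on about 90.1 fragments with the Sox12 vector and 85.7 with the mock vector. That absolute depth is approximate, since the most frequent value was shared by 14 of 433 single-transcript genes for the Sox12 library and 15 of 384 for the mock library. The depth of the DSS libraries is unknown, since that table lists only genes above 1 FPKM in at least 1 library.

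In Treg of DSS-treated mice, 6 of the 31 listed cytosolic chaperone genes, Hsph1, Hspa1b, Hspa1a, Stip1, Chordc1 and Dnaja1, were at least 1.2 times lower than in untreated Treg, against 2.95% of all genes. As deposited, Hspa8, Hspa4 and both HSP90 genes stayed within 1.2 times, and 0 of 5 mitochondrial genes passed it. Of the 36 listed genes, 26 were below 0 and 10 above, where 33.9% of all 10545 genes past the filter were below 0 and 66.1% above. The median change of the 36 genes was -0.07, and that of all genes was 0.05. Those 6 were all that passed 1.2 times lower among the 36. At least 1.2 times higher were 0 of 36, against 7.39% of all genes. Without Hspa1a and Hspa1b, whose near-identical reading frames may share fragments, 4 of 34 were at least 1.2 times lower. With a pseudocount of 5 the 6 genes became 3, namely Hsph1, Stip1 and Chordc1. At least 1.5 times lower was 1 of 36, against 0.446% of all genes, and higher 0 of 36, against 0.872%. At 2 times, 0 of 36 were lower, against 0.0759% of all genes, and 0 higher, against 0.19%. With the median change of all genes set to 0, the split of the 36 was 30 below and 6 above 0, and the 1.2-fold calls over all genes split into 5.01% higher and 4.28% lower. Under that scaling 8 of the 36 were at least 1.2 times lower, with Hsp90ab1 and Ahsa1 added, and 0 higher. With equal 75th percentiles 29 of the 36 were below and 7 above 0, with 55.5% of all genes above 0, and the 1.2-fold calls over all genes split into 5.64% higher and 3.82% lower. The same 8 of the 36 were then at least 1.2 times lower, and 0 higher.

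All 36 listed genes passed the filter, and their summed level was 2963 FPKM in DSS Treg and 3218 FPKM in untreated Treg. These sums were 0.899% of all FPKM in DSS Treg and 0.986% in untreated Treg. Most of the difference in the sum lay in Hsp90ab1 and Hspa8, the most abundant genes of the group.

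Hsph1 encodes HSP110, a nucleotide exchange factor for HSP70 that also holds unfolded proteins. It had 35.5 FPKM in DSS Treg and 57.9 FPKM in untreated Treg, a ratio of 0.612 and a change of -0.69. Counted from the most negative change, it ranked 33 among the 10545 genes. It was the chaperone gene past 1.5 times on the log2(FPKM + 1) scale, while by the plain ratio of FPKM Hspa1b (0.584) and Hspa1a (0.647) were past it as well.

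The stress-inducible HSP70 genes Hspa1a and Hspa1b were present at a low level. Hspa1b had 1.82 FPKM in DSS Treg and 3.11 FPKM in untreated Treg, a change of -0.54, and ranked 60 from the most negative. Hspa1a had 1.5005 FPKM in DSS Treg and 2.32 FPKM in untreated Treg, a change of -0.41. Their longest open reading frames are identical at 99.6% of 1926 aligned bases, so fragments may be shared between them and the split is uncertain. Summed, both genes had 3.32 FPKM in DSS Treg and 5.43 FPKM in untreated Treg, a ratio of 0.611.

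Hspa8, the constitutive HSP70, was far more abundant than its inducible relatives, with 623 FPKM in DSS Treg and 683 FPKM in untreated Treg. Its level was 416 times that of Hspa1a in DSS Treg and 295 times in untreated Treg. Within 1.2 times was also Hspa4, another HSP110-type exchange factor, at 43.6 FPKM in DSS Treg and 44.0 FPKM in untreated Treg. Hspa14, a ribosome-associated HSP70, had 36.2 FPKM in DSS Treg and 34.0 FPKM in untreated Treg, also within 1.2 times. The group of 6 HSP70 and HSP110 genes had a median change of -0.27, but of -0.07 when a mean of at least 5 FPKM was required, which leaves out Hspa1a and Hspa1b.

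Among the J-domain genes, whose products bring clients to HSP70, the lowest change was that of Dnaja1. It had 26.8 FPKM in DSS Treg and 32.4 FPKM in untreated Treg (change -0.27, just past 1.2 times). Dnajb1, the heat-inducible HSP40, had 45.9 FPKM in DSS Treg and 51.8 FPKM in untreated Treg (change -0.17). The remaining J-domain genes lay close to 0. Dnajb4 had 6.65 FPKM in DSS Treg and 6.85 FPKM in untreated Treg. Dnajb6 had 42.5 FPKM in DSS Treg and 41.2 FPKM in untreated Treg. Dnaja2 had 59.99 FPKM in DSS Treg and 56.9 FPKM in untreated Treg.

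Of the HSP70 cochaperones, Bag3, which links HSP70 to selective autophagy, had 6.62 FPKM in DSS Treg and 7.61 FPKM in untreated Treg (change -0.18). St13, which encodes Hip, had 77.8 FPKM in DSS Treg and 85.1 FPKM in untreated Treg (change -0.13). Bag1, an exchange factor, had 50.9 FPKM in DSS Treg and 48.7 FPKM in untreated Treg. None of these 3 genes was past 1.2 times.

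Both cytosolic HSP90 genes were below 0, though neither reached 1.2 times as deposited. Hsp90ab1, the constitutive form, had 464 FPKM in DSS Treg and 545 FPKM in untreated Treg (change -0.23). It was past 1.2 times lower with the median change of all genes set to 0 (change -0.29) and with equal 75th percentiles (change -0.27). Hsp90aa1, the inducible form, had 91.7 FPKM in DSS Treg and 103 FPKM in untreated Treg (change -0.16). The constitutive form exceeded the inducible one 5.06 times in DSS Treg and 5.30 times in untreated Treg.

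HSP90 cochaperones were below 0 in 6 of 7 cases, with a median change of -0.11. Stip1, known as Hop, which joins HSP70 to HSP90, had 60.8 FPKM in DSS Treg and 77.7 FPKM in untreated Treg (change -0.35). Chordc1, which encodes the HSP90 partner CHP-1, had 41.4 FPKM in DSS Treg and 51.1 FPKM in untreated Treg (change -0.30). These 2 genes were past 1.2 times.

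The other cochaperones of HSP90 stayed within 1.2 times as deposited. Ahsa1, the activator of the HSP90 ATPase, had 80.4 FPKM in DSS Treg and 94.3 FPKM in untreated Treg (change -0.23). It was past 1.2 times lower with the median change of all genes set to 0 (change -0.28), and only just with equal 75th percentiles (change -0.264). Fkbp4, a peptidyl-prolyl isomerase of steroid receptor complexes, had 54.7 FPKM in DSS Treg and 59.2 FPKM in untreated Treg. Ptges3, the cochaperone p23, had 73.0 FPKM in DSS Treg and 78.9 FPKM in untreated Treg. Cdc37, which delivers kinases to HSP90, had 72.1 FPKM in DSS Treg and 75.9 FPKM in untreated Treg. Fkbp5, a related isomerase and a well-known glucocorticoid target, stood on the other side. It had 23.7 FPKM in DSS Treg and 19.9 FPKM in untreated Treg, and its change of 0.24 was the highest of the 36 genes.

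The mitochondrial chaperones and TRiC stayed within 1.2 times. Among the mitochondrial genes 4 of 5 were above 0, with a median of 0.04 that was -0.02 when the median change of all genes was set to 0. Hspa9, the mitochondrial HSP70, had 46.2 FPKM in DSS Treg and 43.7 FPKM in untreated Treg. Trap1, the mitochondrial HSP90, had 40.8 FPKM in DSS Treg and 40.5 FPKM in untreated Treg. Dnaja3, their J-domain partner, had 19.7 FPKM in DSS Treg and 17.7 FPKM in untreated Treg (change 0.15). Hspd1, the HSP60 chaperonin, had 68.8 FPKM in DSS Treg and 67.1 FPKM in untreated Treg. Its lid Hspe1, or HSP10, was the mitochondrial gene below 0, with 87.9 FPKM in DSS Treg and 90.9 FPKM in untreated Treg.

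Of the TRiC subunits 6 of 7 were below 0, with changes between -0.09 and 0.01. Cct3 was at the low end, with 52.0 FPKM in DSS Treg and 55.5 FPKM in untreated Treg. Cct2 was at the high end, with 154 FPKM in DSS Treg and 152 FPKM in untreated Treg, although its sign turned when the median change of all genes was set to 0. The other subunits lay between these. Tcp1 had 78.1 FPKM in DSS Treg and 78.3 FPKM in untreated Treg, and Cct4 had 93.0 FPKM in DSS Treg and 94.6 FPKM in untreated Treg. Cct5 had 120 FPKM in DSS Treg and 127 FPKM in untreated Treg. Cct7 had 66.6 FPKM in DSS Treg and 70.6 FPKM in untreated Treg, and Cct8 had 88.3 FPKM in DSS Treg and 91.8 FPKM in untreated Treg. All subunits enter the same ring in equal number, and the levels of these 7 spanned 2.96 times in DSS Treg and 2.75 times in untreated Treg. The further subunit Cct6a was not among the chaperone genes chosen and is not part of this span. Hsf1 itself had 26.6 FPKM in DSS Treg and 28.0 FPKM in untreated Treg (change -0.07).

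**Figure D1:**
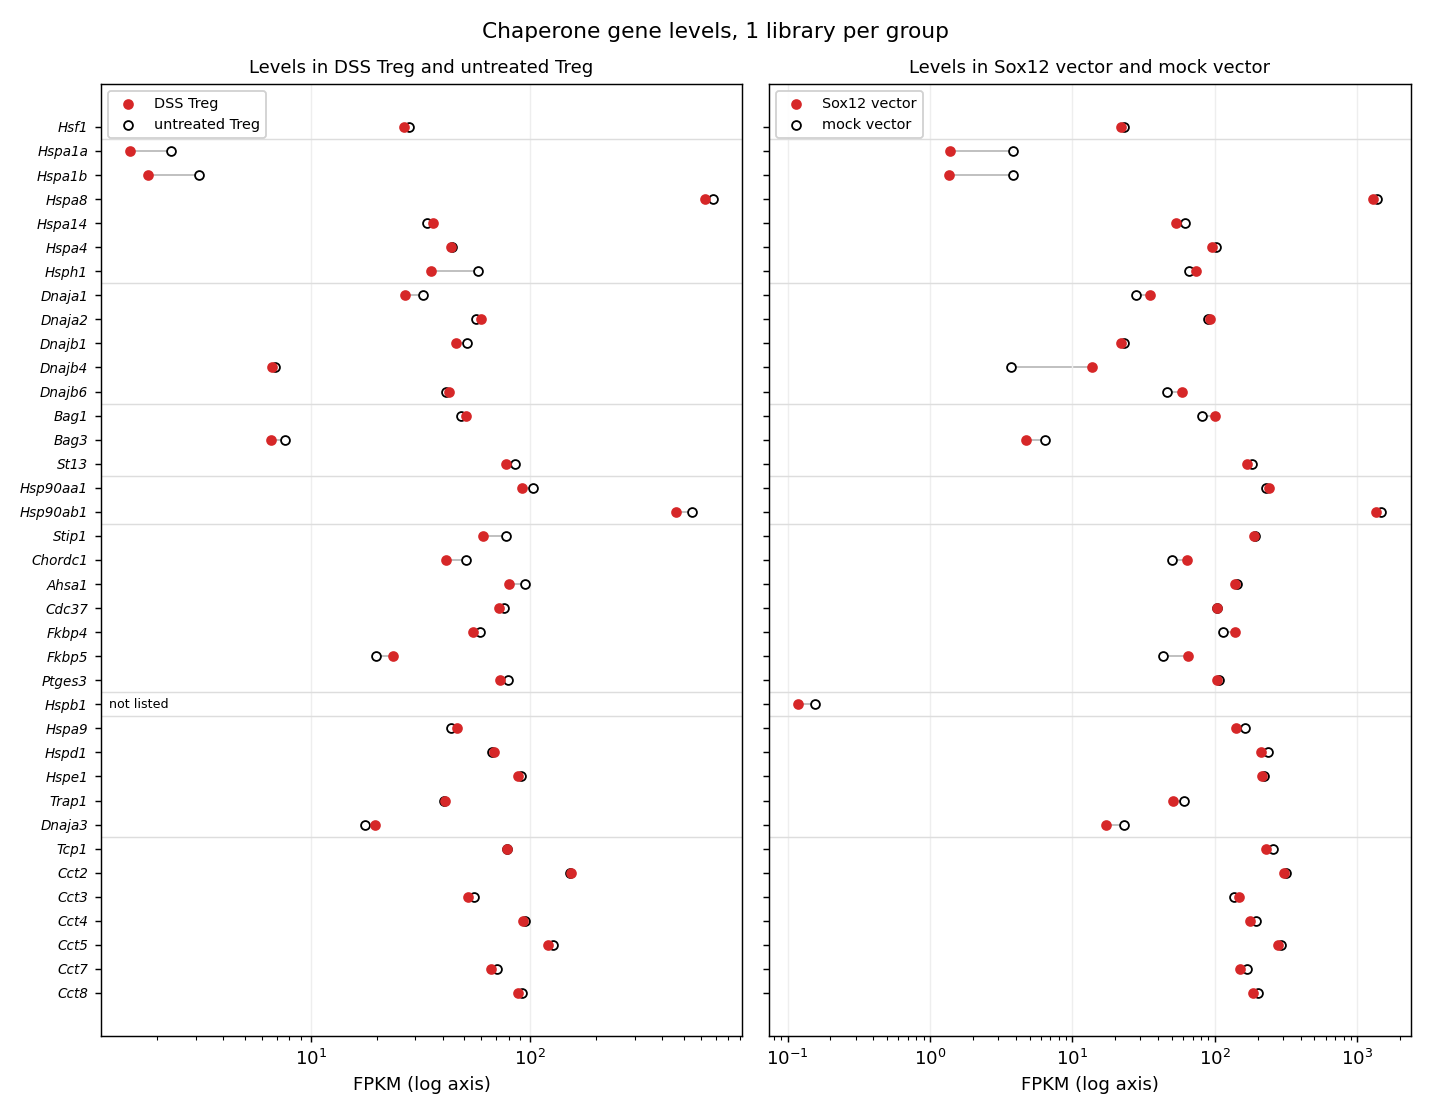
Level of each of the 37 chaperone genes in FPKM on log axes, filled red for DSS Treg (left panel) and the Sox12 vector (right panel), open for untreated Treg and the mock vector, with 1 library per group and grey lines between role groups. In the left panel Hsph1 stands out at 35.5 against 57.9 FPKM, and in the right panel Dnajb4 at 13.6 against 3.70 FPKM.

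Markers of other cell types, and proliferation genes, differed between the same libraries. Each sum here is over all listed markers of a type, with those below the filter included. Of 15 erythroid markers 14 were listed and 14 of 14 were higher in DSS Treg, with sums of 912 FPKM in DSS Treg and 608 FPKM in untreated Treg. Of 11 markers of basophils, mast cells and myeloid precursors 9 passed the filter and 9 of 9 were higher, with sums of 65.6 FPKM in DSS Treg and 29.6 FPKM in untreated Treg. Of 25 proliferation genes, which do not mark a cell type, 25 were higher, with sums of 931 FPKM in DSS Treg and 801 FPKM in untreated Treg. Of 6 listed B and plasma cell markers 5 were lower (sums of 317 FPKM in DSS Treg and 374 FPKM in untreated Treg), and the B cell genes Ms4a1 and Pax5 were not listed. All 5 markers of NK and CD8 T cells past the filter were lower (sums of 29.8 FPKM in DSS Treg and 34.7 FPKM in untreated Treg). Of 11 macrophage and neutrophil markers 3 passed the filter, 2 higher and 1 lower (sums of 18.0 FPKM in DSS Treg and 20.02 FPKM in untreated Treg). The part of these cells, or of proliferation, in the chaperone values was not tested.

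Related genes outside the 37 were read from lists. Of 36 other cytosolic chaperones and cochaperones past the filter, 22 were above and 14 below 0 (median 0.03), with 5 past 1.2 times higher and 0 lower. Their most abundant members were the J-domain gene Dnajc7, with 89.4 FPKM in DSS Treg and 97.2 FPKM in untreated Treg, and the immunophilin Fkbp8, with 91.4 FPKM in DSS Treg and 89.5 FPKM in untreated Treg. Of 5 prefoldin subunits, which hand nascent actin and tubulin to TRiC, 2 were above and 3 below 0, and Pfdn5 had 213 FPKM in DSS Treg and 215 FPKM in untreated Treg. Folding genes of the endoplasmic reticulum were below 0 in 14 of 18 cases (median -0.09), 1 of them past 1.2 times. Among them Calr, a lectin chaperone, had 219 FPKM in DSS Treg and 249 FPKM in untreated Treg.

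Promoter windows of RefSeq on GRCm38.p6, from 250 bases before to 50 after each start, were available for 30 of the 37 genes and are shown because heat shock elements are the known binding sites of HSF1 in the inducible genes. The search was for heat shock elements, as 2 inverted units (GAANNTTC or TTCNNGAA, each its own reverse complement) or 3 units (either of these with 1 further unit in the alternating direction, again 2 bases apart), on both strands, a match of 3 units containing matches of 2. No window was available for Hsf1, Hspa8, St13, Hsp90aa1, Hsp90ab1, Hspa9 and Cct4, so the counts by match leave these genes out. A match of 2 units occurred in 15 of 30 chaperone genes, and in 16.97% of 27025 genes with a window. A match of 3 units occurred in 5 of 30, and in 0.662% of all genes. The stretches below are for genes that were past 1.2 times in the DSS experiment, with the matches in capitals. A match is a description of letters and not of binding.
Hspa1a, chr17:34972245-34972268, minus strand: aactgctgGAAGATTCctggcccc
Hspa1b, chr17:34959327-34959350, minus strand: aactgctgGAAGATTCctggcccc
Hsph1, chr5:149636280-149636308, minus strand: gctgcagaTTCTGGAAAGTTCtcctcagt
Chordc1, chr9:18292255-18292293, plus strand: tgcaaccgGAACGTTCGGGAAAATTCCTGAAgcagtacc
Dnaja1, chr4:40722336-40722359, plus strand: agcctctaGAAAATTCtacgaggc

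Hspa1a and Hspa1b carry the same match from -104 to -97 relative to their starts, and their windows are identical at 296 of 300 bases. Hsph1 has 2 windows with different starts, and the match shown lies after both, from 15 to 27 or from 36 to 48. Another match of 2 units, not shown, lies before both starts, from -54 to -47 or from -33 to -26. In Chordc1 4 overlapping matches of 2 units run from -4 to 18. Stip1, the remaining gene past 1.2 times, had no match in its window. Of the 14 genes with a match that were measured in the DSS experiment, 11 were below 0 and 5 past 1.2 times lower (median change -0.09). Those 5 include Hspa1a and Hspa1b, which carry the same match and may share fragments. Of the 15 without a match, 9 were below 0 and 1 past 1.2 times lower (median -0.01). Over all genes with a window past the filter, 393 of 1072 with a match were below 0 (median 0.05). Of these 1072, 34 were past 1.2 times lower. Of 6520 without a match, 2145 were below 0 and 166 past 1.2 times lower (median 0.05).

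A match did not go with a lower value in every case. Hspd1 and Hspe1 are read in opposite directions from the same stretch of chromosome 1, which holds overlapping matches of 3 units, and both stayed within 1.2 times in DSS Treg. The stretch is shown from either strand to make the shared letters visible, with the matches in capitals.
Hspd1, chr1:55088051-55088084, minus strand: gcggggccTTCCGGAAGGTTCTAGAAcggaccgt
Hspe1, chr1:55088051-55088084, plus strand: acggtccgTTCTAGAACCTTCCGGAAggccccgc

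**Figure D2:**
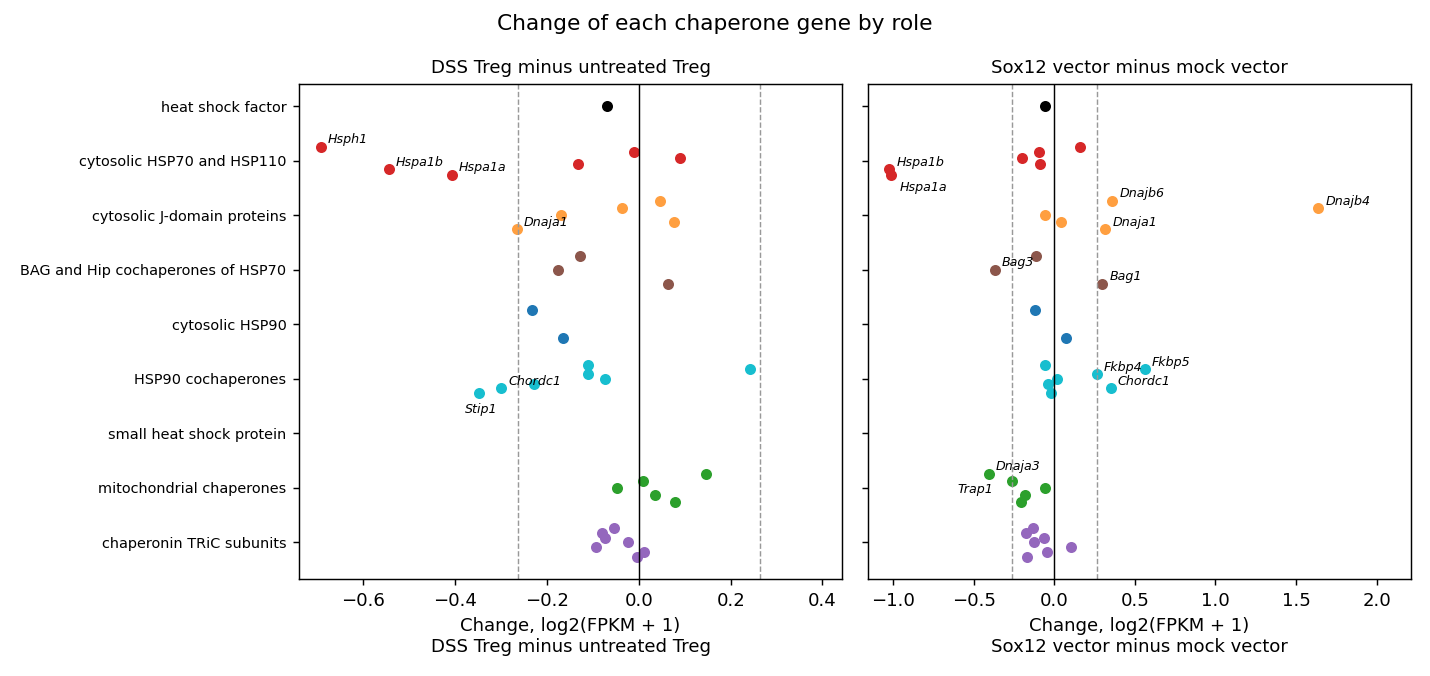
Change of each chaperone gene past the filter on the log2(FPKM + 1) scale, DSS Treg minus untreated Treg at left and Sox12 vector minus mock vector at right, by role, with dashed lines at 1.2 times and names for genes past them. At left 6 genes lie beyond the lower line and 0 beyond the upper one, and at right 5 lie beyond the lower and 7 beyond the upper line.

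In transduced CD4 T cells the chaperone genes divided. Dnajb4, Fkbp5, Dnajb6, Chordc1, Dnaja1, Bag1 and Fkbp4 were higher with the Sox12 vector than with the mock vector, and Hspa1b, Hspa1a, Dnaja3, Bag3 and Trap1 were lower. At least 1.2 times higher were 7 of 36 genes past the filter, against 22.3% of all 10822 genes, and at least 1.2 times lower were 5 of 36, against 21.2% of all genes, so these shares were near or below those of all genes. At least 1.5 times higher was 1 of 36, against 10.1%, and at least 1.5 times lower were 2 of 36, against 6.88%. At least 2 times higher was 1 of 36, against 4.85% of all genes. At least 2 times lower were 2 of 36, against 1.91%. The 2 lower genes at either size were Hspa1a and Hspa1b, whose near-identical reading frames may share fragments. Without them, 0 of 34 were at least 1.5 or 2 times lower.

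By sign, 24 of the 36 genes were below 0 and 12 above, where 51.1% of all genes were below and 48.9% above. The median change was -0.06 for the 36 genes and -0.01 for all genes. With equal totals without the 20 highest genes, 18 of the 36 were below and 18 above 0 (median -0.00126), where 44.1% of all genes were below and 55.9% above (median 0.04). The summed level of the 37 genes was 6534 FPKM with the Sox12 vector and 6821 FPKM with the mock vector, or 1.58% of all FPKM with the Sox12 vector and 1.60% with the mock vector. The tables of both experiments were made separately, so their levels are not compared.

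Dnajb4, a J-domain partner of HSP70, differed most. It had 13.6 FPKM with the Sox12 vector and 3.70 FPKM with the mock vector, a ratio of 3.68 and a change of 1.64, and ranked 193 from the most positive change of 10822 genes. On about 3017 fragments with the Sox12 vector and 780 with the mock vector, the 95% interval of the ratio was 3.40 to 3.99. This interval covers counting error only, and it rests on an approximate depth and the longest transcript in GENCODE vM21. In the DSS experiment the same gene stayed within 1.2 times.

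Of the other J-domain genes, Dnajb6, which suppresses aggregation of polyglutamine proteins, had 59.2 FPKM with the Sox12 vector and 45.9 FPKM with the mock vector (change 0.36). Dnaja1 had 35.1 FPKM with the Sox12 vector and 28.0 FPKM with the mock vector (change 0.32). Within 1.2 times were the remaining ones. Dnaja2 had 92.0 FPKM with the Sox12 vector and 89.4 FPKM with the mock vector, and Dnajb1 had 22.0 FPKM with the Sox12 vector and 22.9 FPKM with the mock vector. The 5 J-domain genes had the highest median change of any role group, 0.32, with 4 above 0.

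Matches of the heat shock element search in the windows of the genes that were higher with the Sox12 vector are shown for comparison with the earlier ones, in capitals.
Dnajb4, chr3:152193844-152193867, minus strand: gttcgctgTTCTAGAAagtacaga
Dnajb6, chr5:29735844-29735872, plus strand: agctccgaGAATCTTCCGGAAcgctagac
Fkbp4, chr6:128438792-128438815, minus strand: cttctctaGAAAGTTCtccgctcc

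Of the 14 genes with a match past the filter in the vector experiment, 5 were past 1.2 times higher and 3 lower (median -0.01). Those 3 include Hspa1a and Hspa1b, which carry the same match and may share fragments. Of the 15 without one, 2 were past 1.2 times higher and 2 lower (median -0.06). Over all genes with a window past the filter, 262 of 1086 with a match were past 1.2 times higher and 214 lower. Of 6637 without one, 1435 were higher and 1345 lower. Among the matched chaperone genes Hspa1b had the lowest change and Dnajb4 the highest.

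Hspa1a and Hspa1b were the genes at least 2 times lower. Hspa1a had 1.39 FPKM with the Sox12 vector and 3.82 FPKM with the mock vector (ratio 0.363, change -1.01). Hspa1b had 1.36 FPKM with the Sox12 vector and 3.80 FPKM with the mock vector (ratio 0.358, change -1.02). For Hspa1a about 185 fragments with the Sox12 vector and 485 with the mock vector gave a counting interval of the ratio of 0.305 to 0.431. For Hspa1b about 172 fragments with the Sox12 vector and 456 with the mock vector gave 0.299 to 0.429. Both intervals cover counting error only and rest on an approximate depth and the longest transcript. Fragments may be shared between these genes, so their split is uncertain and the intervals are not separate measurements. Summed, both genes had 2.74 FPKM with the Sox12 vector and 7.62 FPKM with the mock vector, a ratio of 0.360. With equal totals without the 20 highest genes, or with a pseudocount of 5, neither change reached 2 times.

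The abundant HSP70 genes were within 1.2 times. Hspa8 had 1296 FPKM with the Sox12 vector and 1381 FPKM with the mock vector. Hspa4 had 94.8 FPKM with the Sox12 vector and 101 FPKM with the mock vector. Hspa14 had 53.4 FPKM with the Sox12 vector and 61.5 FPKM with the mock vector. Hsph1, the gene of the lowest change in DSS Treg, had 73.7 FPKM with the Sox12 vector and 65.9 FPKM with the mock vector (change 0.16).

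The cochaperones of HSP70 split. Bag1 had 100.1 FPKM with the Sox12 vector and 81.4 FPKM with the mock vector (change 0.30). Bag3 had 4.75 FPKM with the Sox12 vector and 6.43 FPKM with the mock vector (change -0.37). St13 had 168 FPKM with the Sox12 vector and 182 FPKM with the mock vector, within 1.2 times.

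Hsp90ab1 was the most abundant chaperone gene in both transduced libraries, with 1358 FPKM with the Sox12 vector and 1475 FPKM with the mock vector. It ranked 17 among all rows of the table in either library. Hsp90aa1 had 241 FPKM with the Sox12 vector and 229 FPKM with the mock vector. The constitutive form exceeded the inducible one 5.64 times with the Sox12 vector and 6.44 times with the mock vector.

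Among the HSP90 cochaperones, Fkbp5 had 64.8 FPKM with the Sox12 vector and 43.6 FPKM with the mock vector (ratio 1.49, change 0.56). Chordc1 had 63.5 FPKM with the Sox12 vector and 49.6 FPKM with the mock vector (change 0.35). Fkbp4 had 138 FPKM with the Sox12 vector and 115 FPKM with the mock vector, at the edge of 1.2 times (change 0.26). The changes of the other 4 lay between -0.05 and 0.02. Stip1 had 187 FPKM with the Sox12 vector and 190 FPKM with the mock vector, and Ahsa1 had 139 FPKM with the Sox12 vector and 143 FPKM with the mock vector. Ptges3 had 104 FPKM with the Sox12 vector and 108 FPKM with the mock vector, and Cdc37 had 104 FPKM with the Sox12 vector and 103 FPKM with the mock vector.

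All 5 mitochondrial chaperones were below 0 as deposited and under each scaling with the exception of Hspe1, which was above 0 with equal totals without the 20 highest genes. Dnaja3 had 17.1 FPKM with the Sox12 vector and 23.0 FPKM with the mock vector (change -0.41). Trap1 had 50.5 FPKM with the Sox12 vector and 60.9 FPKM with the mock vector (change -0.26). These 2 genes were past 1.2 times, Trap1 only just.

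Hspa9, at 142 FPKM with the Sox12 vector and 164 FPKM with the mock vector, was closer to 0 (change -0.21). Hspd1 had 209 FPKM with the Sox12 vector and 238 FPKM with the mock vector (change -0.18), and Hspe1 had 213 FPKM with the Sox12 vector and 222 FPKM with the mock vector (change -0.06). The list of other mitochondrial folding and quality control genes was below 0 in 12 of 15 cases (median -0.11). At least 1.2 times lower were 4 of the 15, and 0 higher. Of all genes in that experiment, 51.1% were below 0 and 21.2% at least 1.2 times lower. The gene of that list with the highest mean over both libraries, the matrix protease Lonp1, had 48.1 FPKM with the Sox12 vector and 68.9 FPKM with the mock vector. In the DSS experiment 12 of the same 15 genes were above 0, with a median of 0.07. Over all genes there the share above 0 was 66.1% and the median 0.05.

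TRiC subunits were below 0 in 6 of 7 cases with the Sox12 vector (median -0.13), and none was past 1.2 times. The lowest change was that of Cct7, with 149 FPKM with the Sox12 vector and 169 FPKM with the mock vector (change -0.18). Tcp1 had 227 FPKM with the Sox12 vector and 255 FPKM with the mock vector, and Cct8 had 184 FPKM with the Sox12 vector and 202 FPKM with the mock vector. The other subunits below 0 were closer to it. Cct4 had 178 FPKM with the Sox12 vector and 194 FPKM with the mock vector. Cct5 had 277 FPKM with the Sox12 vector and 290 FPKM with the mock vector, and Cct2 had 303 FPKM with the Sox12 vector and 313 FPKM with the mock vector. Cct3 was the subunit above 0, with 147 FPKM with the Sox12 vector and 137 FPKM with the mock vector. Hsf1 had 22.1 FPKM with the Sox12 vector and 23.0 FPKM with the mock vector. Hspb1, the small heat shock protein HSP27, had 0.118 FPKM with the Sox12 vector and 0.155 FPKM with the mock vector, on about 5 fragments with the Sox12 vector and 6 with the mock vector, so no difference was detectable at this depth.

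Other genes of the machinery in these cells were again spread over both sides. Of 37 other cytosolic chaperones and cochaperones past the filter, 21 were above and 16 below 0 (median 0.03), with 6 past 1.2 times on either side. Hspa12b, a distant HSP70 relative, had 2.25 FPKM with the Sox12 vector and 0.182 FPKM with the mock vector (change 1.46). Hspb11, which despite its name is a subunit of the intraflagellar transport complex, had 17.04 FPKM with the Sox12 vector and 33.1 FPKM with the mock vector. Dnajb14, a membrane-bound J-domain gene, had 2.66 FPKM with the Sox12 vector and 5.21 FPKM with the mock vector. Of 5 prefoldin subunits 2 were above and 3 below 0, and folding genes of the endoplasmic reticulum were below 0 in 12 of 18 cases (median -0.05).

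Markers of NK and CD8 T cells were higher with the Sox12 vector in 10 of 10 cases, with sums of 515 FPKM with the Sox12 vector and 155 FPKM with the mock vector. T cell identity genes were lower in 8 of 10 cases, with sums of 1666 FPKM with the Sox12 vector and 2182 FPKM with the mock vector. Of 4 B and plasma cell markers past the filter 3 were lower. All 9 listed ones summed to 113 FPKM with the Sox12 vector and 186 FPKM with the mock vector. Of 5 erythroid markers past the filter 3 were lower. All 14 listed ones summed to 216 FPKM with the Sox12 vector and 317 FPKM with the mock vector. Of 11 basophil, mast cell and myeloid precursor markers 0 passed the filter, and Prss34, Elane and Ms4a2 were at 0 in both libraries. Of 11 macrophage and neutrophil markers 1 passed it, and Csf1r, Fcgr1, S100a8, S100a9 and Mertk were at 0. Of 25 proliferation genes 10 were above and 15 below 0, with sums of 3519 FPKM with the Sox12 vector and 2929 FPKM with the mock vector. Stmn1 was among those above 0, with 945 FPKM with the Sox12 vector and 335 FPKM with the mock vector. The part of the markers' cells, or of proliferation, in the chaperone values was not tested.

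**Figure D3:**
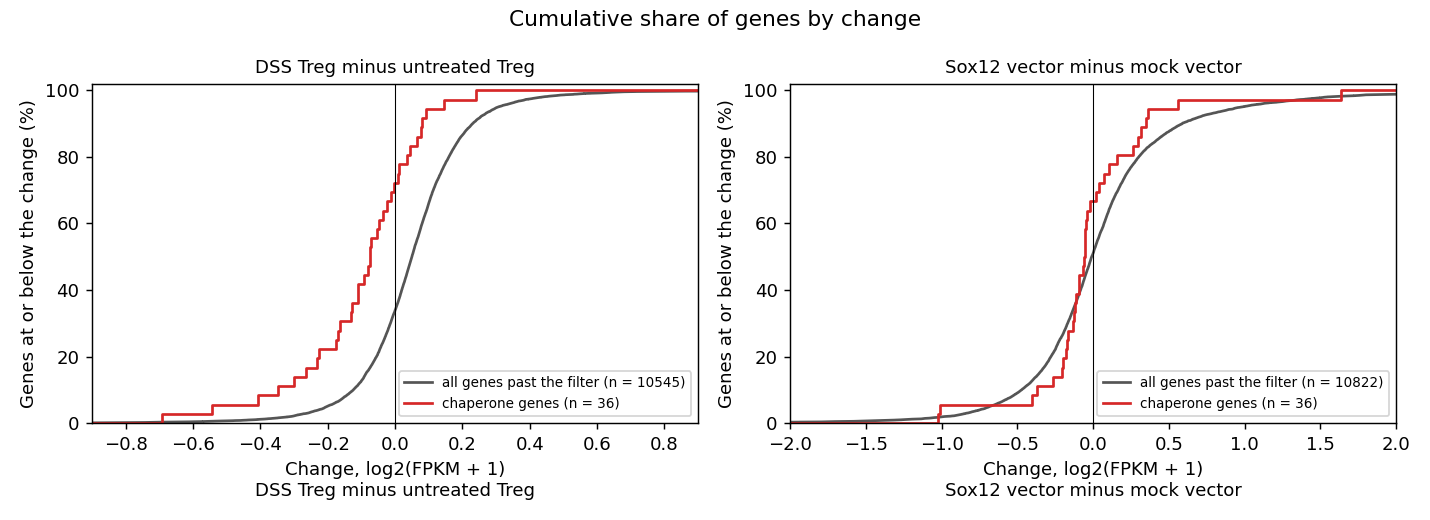
Share of genes, in percent, at or below each change on the log2(FPKM + 1) scale, for the chaperone genes (red, n = 36 in each panel) and all genes past the filter (grey, n = 10545 at left and 10822 at right). At left the red curve crosses 0 with 26 of 36 genes below it, where 33.9% of all genes lie, and at right with 24 of 36, where 51.1% of all genes lie.

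Side by side, both experiments gave values for 36 chaperone genes, from different strains, cells and control libraries. Hspa1a and Hspa1b were at least 1.2 times lower in both, and over all 9958 genes past the filter in both experiments 1.04% were. Both genes were at a low level and may share fragments. With a pseudocount of 5 their changes in DSS Treg were -0.17 and -0.25, within 1.2 times. Chordc1 and Dnaja1 were at least 1.2 times lower in DSS Treg and higher with the Sox12 vector, as were 0.793% of all genes. Dnaja1 too was within 1.2 times in DSS Treg with a pseudocount of 5 (change -0.24). Hsph1 and Stip1 were past 1.2 times in the DSS experiment alone by these counts, and Bag3, Trap1, Dnaja3, Dnajb4, Dnajb6, Bag1, Fkbp4 and Fkbp5 in the vector experiment alone. Whether the changes of a gene differ between the experiments was not tested. The other 22 genes, among them Hspa8, both HSP90 genes and the 7 TRiC subunits listed here, lay within 1.2 times in both as deposited.

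Fkbp5 and Fkbp4 are paralogous isomerases of the same HSP90 complexes, and the ratio of their levels was lower in DSS Treg and with the Sox12 vector than in either control library. The level of Fkbp4 was 2.31 times that of Fkbp5 in DSS Treg and 2.97 times in untreated Treg, and 2.13 times with the Sox12 vector and 2.64 times with the mock vector. Hspd1 and its lid Hspe1 kept a ratio of levels of 0.783 in DSS Treg and 0.738 in untreated Treg, and of 0.981 with the Sox12 vector and 1.07 with the mock vector.

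**Figure D4:**
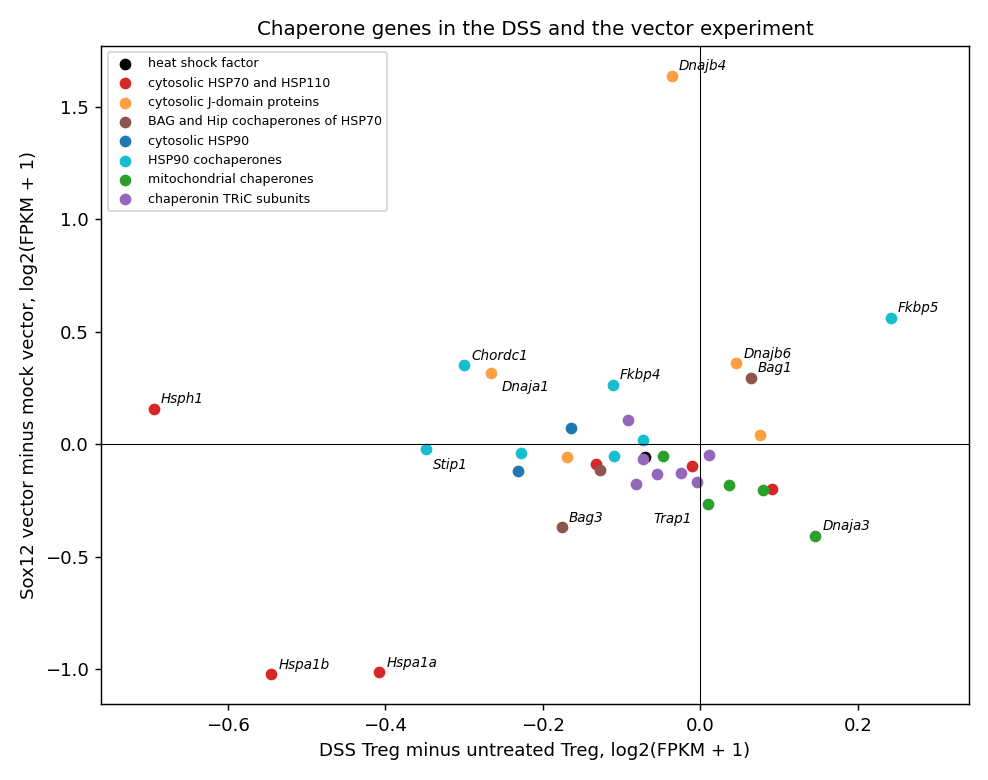
Change of 36 chaperone genes on the log2(FPKM + 1) scale in the DSS experiment (x axis) and the vector experiment (y axis), 1 point per gene, coloured by role and named where past 1.2 times in either. Hspa1a and Hspa1b lie low on both axes, and Chordc1 and Dnaja1 lie low on the x axis and high on the y axis.

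Some genes share exonic sequence with neighbours in GENCODE vM21, and the sources do not say whether the authors' counting used strand. On the same strand Hspa8 holds small nucleolar RNA genes, and exons of Dnaja3 overlap those of Vasn. On the opposite strand Dnaja1 overlaps Smu1, Trap1 overlaps Dnase1, Dnaja3 overlaps Coro7, Tcp1 overlaps Mrpl18 and Acat3, Cct7 overlaps Pradc1 and Cct8 overlaps Usp16. The values of these genes may include fragments of those neighbours.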

How the data were processed

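Libraries of 4 mouse T cell samples were prepared with a strand-specific kit, as the labels' protocols state. Cufflinks and build mm9 are named in the submitters' processing notes, with versions, aligner and annotation not given in the sources used here. Per the file headers and values, the deposited DSS table holds FPKM and a linear fold change ratio made by the authors. The deposited vector table holds log2(FPKM + 1) and its difference, and it was turned back to FPKM. Columns were matched to libraries by name and title.

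Dropped because a date stood in place of the symbol were 16 DSS rows and 25 vector rows. Changes were computed with Python 3.11.15, numpy 2.4.6 and pandas 2.3.3, with a pseudocount of 1 and a mean of at least 1 FPKM. Depth came from values below 0.1 FPKM and single-transcript genes of GENCODE vM21. Intervals are exact (Clopper-Pearson) at 95%, for counting error only. The computation of changes and their scaling to a median of 0 were tested on simulated counts with counting error only. The chaperone genes and all lists were chosen with earlier results of these data known. Every one of the 37 genes is named; of other lists, up to 4 genes past 1.5 times or else the 2 most abundant were eligible. Alternatives were pseudocounts of 0.1 and 5, no filter, a mean of at least 5 FPKM and 3 scalings.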

Additional observations from a re-analysis of the deposited data

How the results depend on the processing

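No paired analysis was possible because each group has 1 library, so no replicate could be left out either. The median change of the chaperone genes stayed below 0 in both experiments under the alternatives run, but in the vector experiment it was -0.00126 with equal totals without the 20 highest genes, where 18 genes were below and 18 above 0 in place of 24 and 12. The number above 0 in the DSS experiment was 10 as deposited and 6 with the median change set to 0. No gene past 1.2 times in an experiment changed sign there under the alternatives run. Changes moved by more than 0.1 for Hspa1a and Hspa1b with other pseudocounts, to between -0.60 and -0.17 and between -0.74 and -0.25 in the DSS experiment, and to between -1.40 and -0.47 and between -1.42 and -0.47 in the vector experiment. Dnajb4 moved to between 1.10 and 1.85 with the Sox12 vector, and Bag3 to -0.23 with a pseudocount of 5. DSS genes 1.2 times lower were 6 with the pseudocount of 1 and 3 with a pseudocount of 5. Those 1.5 times lower were 1 with the pseudocount of 1 and 3 with a pseudocount of 0.1. With the Sox12 vector, genes 2 times lower were 2 as deposited and 0 with a pseudocount of 5, a mean of at least 5 FPKM or equal totals without the 20 highest genes. Those 1.5 times lower were 2, and 0 with a pseudocount of 5 or a mean of at least 5 FPKM, while those 1.5 times higher were 1, and 2 with equal totals. Those 1.2 times lower were 5, and 4 with the median change set to 0 or equal totals without the 20 highest genes. With a pseudocount of 5 they were 3, namely Hspa1b, Hspa1a and Dnaja3. With a mean of at least 5 FPKM, which leaves out Hspa1a and Hspa1b, they were 3 others in part, namely Dnaja3, Bag3 and Trap1. Over all genes, the share at least 1.2 times lower in the DSS experiment was 1.36% with a pseudocount of 5, and that higher was 2.41%. Without the filter, the vector experiment had 12.3% of genes 1.2 times higher and 11.1% lower, since many low genes enter. Other pseudocounts or filters moved the shares past 1.5 times to between 0.228% and 1.81% higher and 0.180% and 0.816% lower in the DSS experiment, and to 5.29% higher and 3.11% lower at the least in the vector experiment. Past 2 times they reached 0.0569% to 0.370% higher and 0.0248% to 0.190% lower in the DSS experiment, and as few as 2.05% higher and 0.869% to 3.10% lower in the vector experiment. Scaling moved the median change of all genes by less than 0.1. The depth of the DSS libraries is unknown, so no counting interval is given for them.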

Other observations

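Proteasome subunits, which degrade proteins that chaperones fail to fold, were not part of the chaperone lists. In the DSS experiment 22 of 31 were above 0 and 9 below, with a median change of 0.06 beside 0.05 for all genes, and none was past 1.2 times. Psmb1 had 105 FPKM in DSS Treg and 101 FPKM in untreated Treg, and Psmb4 had 105 FPKM in DSS Treg and 99.3 FPKM in untreated Treg. In the vector experiment 17 of 31 were above 0 and 14 below (median 0.04). Psma7 had 246 FPKM with the Sox12 vector and 229 FPKM with the mock vector, and Psmb2 had 198 FPKM with the Sox12 vector and 212 FPKM with the mock vector.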
